A study of Mus musculus with 4 samples.

Results

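The Zfp genes described here are the zinc finger genes of the mouse whose symbol is Zfp followed by a number and at most 1 letter. Zfp36 was left out because it encodes a CCCH-type RNA-binding protein. The deposited expression files listed 325 such genes among 13792 genes in all, and 73 further Zfp genes in RefSeq were not analysed here. RefSeq classes 323 of the 325 as protein coding, while Zfp683 is given as a pseudogene and Zfp783 as a long noncoding RNA. The rule uses the symbol and no measured value, and it could reach only genes that the files list.

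Most Zfp proteins carry rows of C2H2 zinc fingers, small folds held by a zinc ion, each of which can read a short stretch of DNA. Many also carry a KRAB domain, which recruits Trim28 (KAP1) and through it the histone methyltransferase Setdb1 and heterochromatin proteins, and the mouse genome holds many such genes in tandem clusters that silence retroelements. The symbol does not guarantee a transcription factor, because it also covers proteins of the spindle (Zfp207), of ribosome quality control (Zfp598) and of ribosome assembly (Zfp622). Protein sequences were not used here, so members were not sorted by KRAB domain or by number of fingers.

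RNA came from naive B cells of C57BL/6 mice that had been infected with a retrovirus and kept in culture with antibodies against IgM and CD40. The RVKM-Empty virus carried no insert (Empty library) and the RVKM-Ascl2 virus carried Ascl2, a basic helix-loop-helix transcription factor (Ascl2 library). The labels give no mouse age, no viral promoter and no sort of infected cells. Each group had 1 library, so no value below has a replicate error, no difference has a test, and the counts and medians describe these libraries. In bulk RNA, fewer cells of a type and less RNA per cell cannot be told apart.

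The values are abundances scaled for depth and, as far as they show, for gene length. Their sums were 750692 (Empty) and 763932 (Ascl2), and the number of reads behind them is unknown. The Ascl2 gene itself was 0.0809 and 29.4, the direction that the labels give. All 9 B cell markers were listed, at 22.0 to 748 in the Empty library and 24.3 to 626 in the Ascl2 library. Of 9 T cell markers only Thy1 (395 and 346) and Lck (21.7 and 17.8) were listed, and none of the T cell receptor and CD3 genes. Of 9 myeloid markers 6 were listed, at 0.780 to 16.2 and 1.06 to 21.4, and 5 of the 6 were higher in the Ascl2 library. Their part in the results below was not tested.

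The typical Zfp gene was expressed at a lower level than the typical gene of either library. Their median value was 4.79 in the Empty library and 5.52 in the Ascl2 library, while the medians over all listed genes were 10.2 and 10.2. The quartiles of the Zfp genes were 2.43 and 10.4 in the Empty library and 2.55 and 11.2 in the Ascl2 library. Those of all listed genes were 2.41 and 28.7, and 2.49 and 27.8. The lower quartiles were thus nearly equal. The Zfp genes had a smaller share of high values, and also a smaller share of values under 1 (given below). Together the 325 genes made up 0.360% (Empty) and 0.386% (Ascl2) of the sum over all genes. The 3 related zinc finger families were also low. Medians in the Empty and Ascl2 libraries were 5.81 and 7.06 for 37 Zbtb genes, 5.23 and 5.32 for 17 Zscan and Zkscan genes, and 4.52 and 5.31 for 12 Klf genes.

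A value under 1 was held by 27 Zfp genes in the Empty library and by 28 in the Ascl2 library. These are 8.31% and 8.62% of the Zfp genes, against 13.94% and 13.0003% of all genes. Values from 1 to under 5 were held by 142 and 120 genes (43.7% and 36.9%, against 21.6% and 22.3% of all genes). Values from 5 to under 20 were held by 128 and 147 genes (39.4% and 45.2%, against 30.9% and 31.6%). The band from 20 to under 100 held 27 and 29 genes (8.31% and 8.92%, against 26.5% and 26.3%), and Zfp207 alone was above 100. The counts of the libraries thus differed mainly by fewer genes at 1 to 5 and more at 5 to 20 in the Ascl2 library.

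**Figure D1:**
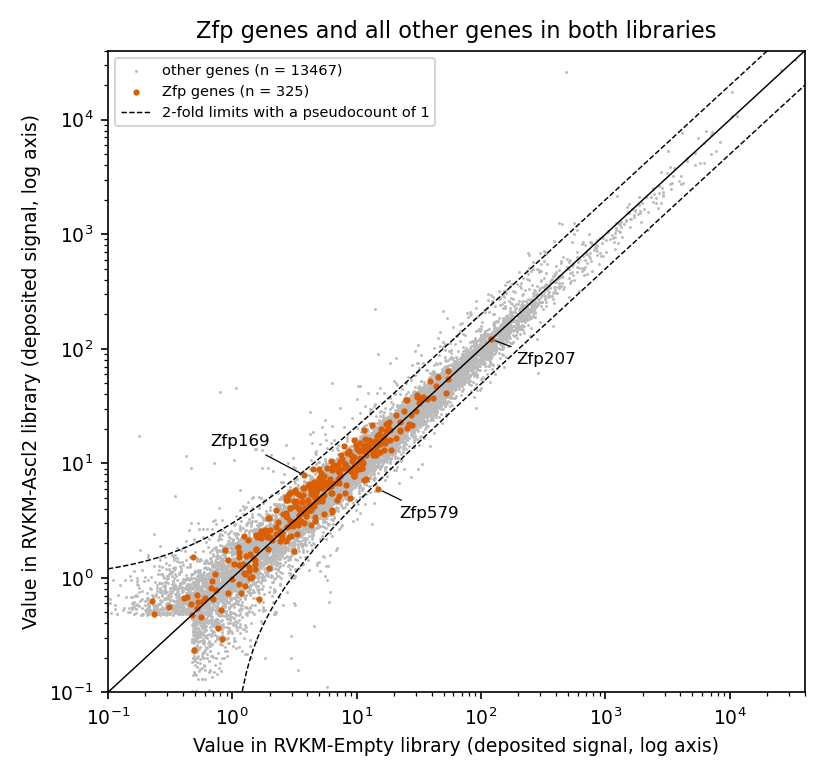
Values of all listed genes in the RVKM-Empty library (x axis) and the RVKM-Ascl2 library (y axis), both as deposited signal on log axes, with 325 Zfp genes in orange and 13467 other genes in grey. Genes under 0.1 in a library (51, none a Zfp gene) are not drawn. Few Zfp genes lie above 20. Zfp579 is the only one outside the dashed lines, which mark 2-fold after a pseudocount of 1 is added to both values and so widen at low values.

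The most abundant Zfp genes were led by Zfp207, also called BuGZ, a microtubule and kinetochore protein of the mitotic spindle, at 121 in the Empty library and 121 in the Ascl2 library. Zfp445, which helps to keep imprinted genes methylated, was 54.7 and 64.2. Zfp106, an RNA-binding protein, was 54.2 and 54.99. Of these 3, Zfp207 and Zfp106 were nearly equal between the libraries, and Zfp445 was 1.17 times as high in the Ascl2 library. Zfp62 was 44.8 and 56.2, and Zfp639 was 39.2 and 52.4. Zfp362 was the reverse, at 52.7 and 40.8. Zfp280b (43.6 and 47.4), Zfp622 (41.2 and 37.1), Zfp638 (36.7 and 36.7), Zfp740 (34.1 and 37.6), Zfp800 (30.6 and 39.8) and Zfp330 (32.7 and 37.3) completed the 12 highest mean values. In this group the libraries were thus within 1.5-fold of each other for every gene.

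At the other end, 23 Zfp genes were under 1 in both libraries. They include Zfp57, which binds methylated imprinting control regions and was 0.773 and 0.366, and Zfp708, at 0.226 and 0.623. The remaining 302 of 325 genes reached 1 in at least 1 library, as did 12283 of all 13792 listed genes. The counts below are over these 302. Of the 302, 293 reached 1 in both libraries, 5 only in the Empty library and 4 only with Ascl2. Just below the limit lay Zfp78 (0.995 and 0.968), Zfp449 (0.684 and 0.943) and Zfp704 (0.917 and 0.732). Just above it lay Zfp438 (0.731 and 1.08), Zfp14 (1.14 and 0.886) and Zfp647 (1.18 and 0.735).

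The comparison of the libraries asked how these genes differ when Ascl2 is introduced. Each log2 ratio is log2((Ascl2 + 1)/(Empty + 1)), and the pseudocount of 1 shrinks the ratios of weakly expressed genes. The Zfp genes had small ratios that leaned towards higher values in the Ascl2 library. Of 302 genes, 197 (65.2%) had a log2 ratio above 0, where 48.4% of all 12283 genes that reached 1 did. Their median log2 ratio was 0.13, with quartiles of −0.085 and 0.36, and the median over all those genes was −0.012, with quartiles of −0.22 and 0.19. The family's median stayed above 0 under both rescalings of the Ascl2 library, at 0.15 and 0.20, where the median of all genes was 0 by construction and 0.052.

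Large differences were scarce. With the pseudocount of 1, no Zfp gene had a ratio of 2-fold or more towards the Ascl2 library, which 1.53% of all genes had. In the other direction 1 Zfp gene did, and 0.716% of all genes. At 1.5-fold, 19 Zfp genes (6.29%) were higher and 7 (2.32%) lower, where 5.01% of all genes were higher and 4.31% lower. The lean is therefore one of many small ratios. Past 1.5-fold the higher share over all levels together was close to that of all genes, and the lower share was below it. The higher share differed by level (the larger of the 2 values). From 5 to under 10, 9 of 90 Zfp genes and 81 of 1842 other genes were at least 1.5-fold higher. Counts from 10 to under 20 were 5 of 63 and 69 of 2314. From 1 to under 2 they were 1 of 32 and 103 of 1216. From 2 to under 5 they were 3 of 84 and 129 of 1755. From 20 upwards they were 1 of 33 and 214 of 4854, so outside 5 to under 20 the Zfp share was the lower one.

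**Figure D2:**
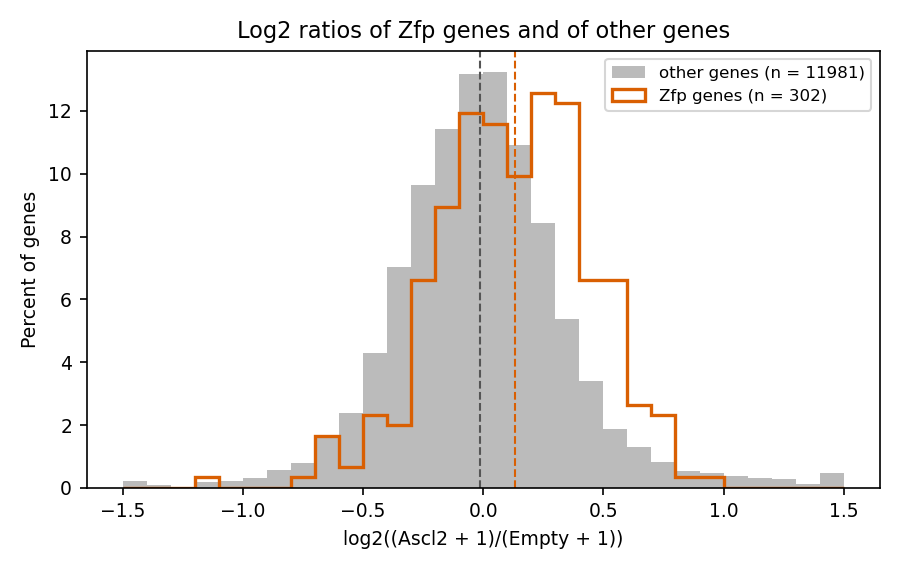
Percent of genes (y axis) by log2 ratio of the Ascl2 library over the Empty library (x axis, bins of 0.1) for 302 Zfp genes (orange outline) and 11981 other genes (grey), with dashed lines at the medians. End bars also hold 71 other genes past 1.5 in either direction. The Zfp distribution is moved to the right.

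The lean was absent from the lowest genes. Among genes whose larger value was 1 to under 2, the 32 Zfp genes had a median log2 ratio of −0.024 and the 1216 other genes 0.053. From 2 to under 5 the medians were 0.10 for 84 Zfp genes and 0.014 for 1755 others. From 5 to under 10 they were 0.23 for 90 and 0.0038 for 1842. From 10 to under 20 they were 0.13 for 63 and −0.00081 for 2314, and from 20 upwards 0.12 for 33 and −0.056 for 4854. So in every band from 2 upwards the Zfp median was above that of other genes of like level.

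The related families did not show the same size of lean. Among genes that reached 1, the median log2 ratio was 0.0016 for 36 Zbtb genes, 0.077 for 17 Zscan and Zkscan genes and −0.12 for 11 Klf genes. Above 0 were 52.8% of the Zbtb, 58.8% of the Zscan and Zkscan and 36.4% of the Klf genes. The Zscan and Zkscan values were close to those of the 102 Zfp genes without a Zfp neighbour described below (median 0.073, 59.8% above 0). These families are small, and their difference from the Zfp genes was not tested.

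Among the Zfp genes with the lowest ratios, Zfp579 (ENSMUSG00000051550, chromosome 7, 4992852 to 4996101, GRCm38) stood apart. It was 15.0 in the Empty library and 5.96 in the Ascl2 library, a log2 ratio of −1.20. The next, Zfp691, was 8.85 and 4.94 (−0.73). Zfp521, a haematopoietic regulator known to restrain the B lineage factor Ebf1, was 1.65 and 0.650 (−0.69). Zfp521 passed the limit of 1 only through the Empty library. Zfp691 and Zfp521 were past 1.5-fold but short of 2-fold. Without a pseudocount the Empty value of Zfp521 was 2.55 times the Ascl2 value, as large a ratio as that of Zfp579 (2.51), but at a far lower level.

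Zfp771 was 11.97 and 7.31 (−0.64), and Zfp668 was 6.36 and 3.74 (−0.64). Zfp219, a nuclear partner of Sox9, was 11.49 and 7.13 (−0.62). Zfp972 was 3.13 and 1.72 (−0.60). These 4 with the 3 before them are the 7 genes at least 1.5-fold lower. Zfp523, a close relative of the promoter factor Zfp143, was 6.35 and 3.94 (−0.57). Zfp64 was 19.0 and 13.1 (−0.51), Zfp282 was 5.42 and 3.60 (−0.48), Zfp385a was 8.09 and 5.55 (−0.47), and Zfp580 was 6.91 and 4.77 (−0.46).

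The highest ratio was that of Zfp169, at 3.77 in the Empty library and 7.91 in the Ascl2 library (log2 ratio 0.90). Zfp991 was 4.46 and 8.97 (0.87), and Zfp120 was 7.91 and 14.2 (0.77). Zfp558 was 0.487 and 1.53 (0.77). Zfp558 passed the limit of 1 only through the Ascl2 library. Its plain ratio was 3.15, and those of Zfp169 and Zfp991 were 2.10 and 2.01, so that the pseudocount is what holds these 3 below 2-fold.

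Zfp346, which binds double-stranded RNA, was 11.4 and 19.6 (0.73), and was the only one of the 12 highest that also had a place in a list of known functions. Zfp992 was 2.96 and 5.62 (0.74), Zfp97 was 2.88 and 5.40 (0.72), and Zfp65 was 5.03 and 8.91 (0.72). Zfp433 was 3.23 and 5.89 (0.71), and Zfp119b was 2.73 and 5.04 (0.70). Most of the genes at this end have no function in the lists used here. Zfp930 was 9.60 and 16.0 (0.69), and Zfp825 was 6.27 and 10.5 (0.67).

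**Figure D3:**
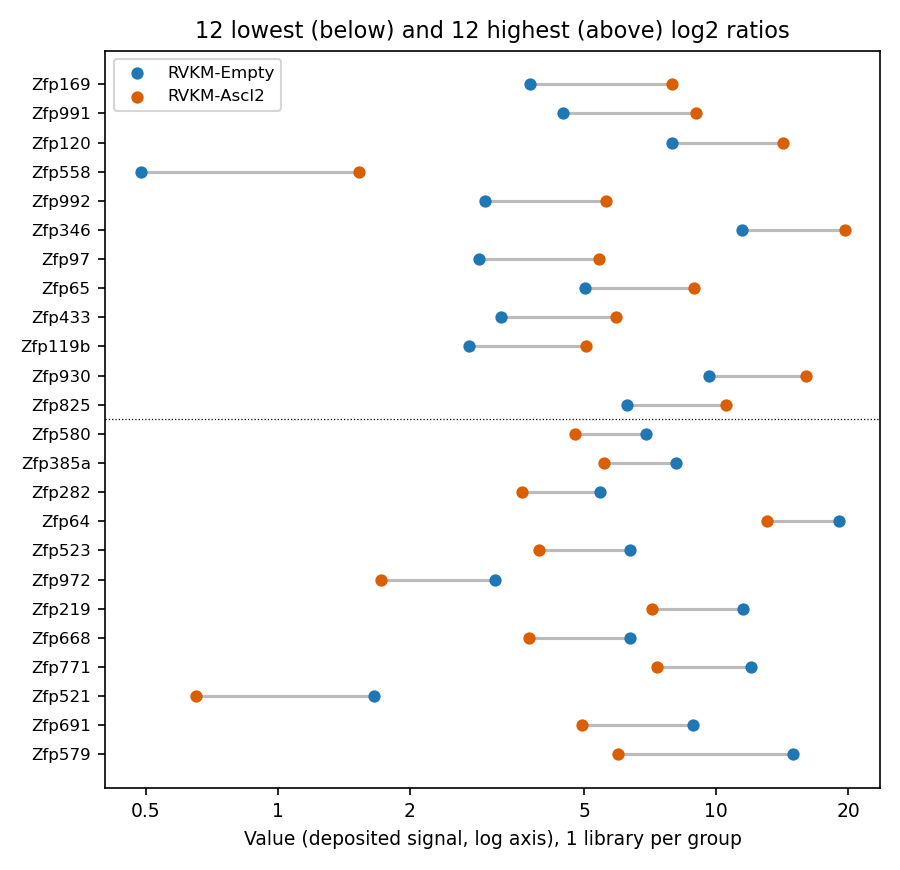
Values of the 12 Zfp genes with the lowest log2 ratios (below the dotted line) and the 12 with the highest (above it), as deposited signal on a log x axis, blue for RVKM-Empty and orange for RVKM-Ascl2, 1 library each. Zfp579 has the lowest ratio (15.0 and 5.96), and Zfp521 and Zfp558, both at low values, show gaps as wide on the log axis.

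By known function, the Zfp genes of the spindle, the ribosome, RNA and protein modification had a median log2 ratio of 0.0026 over 13 measured, with 1 at least 1.5-fold higher (Zfp346) and none lower by that much. At 1.5-fold 5.01% of all genes were higher and 4.31% lower, so counts this small in the lists of known function do not set any of them apart from all genes. Zfp598, the sensor of collided ribosomes, was 25.3 in the Empty library and 20.5 in the Ascl2 library. Zfp593, a factor of large ribosomal subunit assembly, was 11.1 and 9.11. Zfp91, a ubiquitin ligase of noncanonical NF-κB signalling, was 31.8 and 34.0, and the SUMO ligase Zfp451 was 10.7 and 11.2.

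Members of chromatin complexes and general transcription had a median log2 ratio of 0.056 over 15 measured of 18, with 1 at least 1.5-fold lower (Zfp219) and none higher. Zfp143, which binds promoters and chromatin loop anchors, was 16.7 and 17.4. Zfp217, a partner of histone demethylase complexes, was 27.1 and 26.7, and Zfp281, a partner of the NuRD complex, was 9.19 and 10.4. Zfp644, which binds the histone methyltransferases Ehmt1 and Ehmt2, was 9.99 and 13.3, and Zfp131 was 30.6 and 38.3. Of the genes named here the higher ratios were those of Zfp644 (0.38) and Zfp131 (0.31).

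Of 10 members with lymphocyte or haematopoietic roles, 9 were measured, with a median of −0.068. Zfp521 was past 1.5-fold, but it was kept only through its Empty value. Zfp318, which lets mature B cells make IgD by preventing early termination of the heavy chain transcript, was 15.2 and 18.01 (log2 ratio 0.23). Zfp608 was 15.5 and 14.7, and Zfp335 was 13.7 and 11.8. Zfp292 was 10.7 and 15.1 (0.46). Zfp683, known as Hobit in T cells, was low at 2.94 and 2.33.

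Among 8 members known for imprinting or for silencing retroelements and proviruses, 6 reached 1, and 5 of the 6 had a log2 ratio above 0, as did 65.2% of the whole family and 48.4% of all genes. None of the 6 was past 1.5-fold. Zfp809, which recognises the primer binding site of murine leukaemia viruses, was 22.4 in the Empty library and 22.9 in the Ascl2 library. Zfp638, which brings the HUSH complex to unintegrated retroviral DNA, was 36.7 and 36.7. These 2 genes bear on the fate of retroviral DNA and were nearly equal in both infected cultures. Zfp932, a silencer of endogenous retroviruses, was 20.9 and 26.2, and Zfp568, which represses a placental promoter of Igf2, was 2.91 and 4.04.

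The partners that KRAB proteins work through were measured in full. Of 29 genes of the KRAB and heterochromatin pathway, 1 was at least 2-fold higher and none lower, against 1.53% and 0.716% of all genes, and the median log2 ratio was 0.080. Trim28, the corepressor that KRAB domains bind, was 215 in the Empty library and 189 in the Ascl2 library, and Setdb1 was 18.1 and 20.5. Atf7ip, which stabilises Setdb1 in the nucleus, was the exception, at 15.5 and 45.6 (a log2 ratio of 1.5004). The heterochromatin protein gene Cbx5 was 31.5 and 42.1, and Atrx was 100.03 and 149. Trim28 exceeded every Zfp gene in level in both libraries.

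Zfp genes lie in clusters, and neighbours tended to have ratios of the same sign in some of them. Members closer than 500 kb were joined into runs, using RefSeq coordinates on GRCm38, and 13 runs held at least 5 genes that reached 1, 128 genes in all. Genes of a run are tandem copies of one another in many cases. They share sequence, the sources used here do not say how reads were divided between copies, and single genes of a run are therefore uncertain and not independent of each other.

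In the run from Zfp712 to Zfp273 on chromosome 13 (67038594 to 67827000), 18 of 19 genes were above 0, and the median log2 ratio was 0.32. Values ran from 1.34 to 9.59 in the Empty library and from 1.4993 to 11.3 in the Ascl2 library, and their sums were 70.8 and 94.1. Zfp65 was 5.03 and 8.91, Zfp748 was 3.19 and 5.61 (log2 ratio 0.66), and Zfp429 was 9.59 and 11.3 (0.22). Zfp953 was the exception, at 2.47 and 2.38. Over the 419 other genes of chromosome 13 the median was 0.028, but the 2 other genes inside the run were both above 0, with a median of 0.50.

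In the run from Zfp160 to Zfp213 on chromosome 17 (21008941 to 23564226), 19 of 20 genes were above 0, and the median was 0.36. Zfp54 was 3.71 and 6.05 (0.58), Zfp760 was 3.37 and 5.39 (0.55), Zfp52 was 8.66 and 12.9 (0.53) and Zfp942 was 9.86 and 14.4 (0.51). The exception, Zfp213, was 3.32 and 2.42 and lies at the far end of the run. A further run on chromosome 17, from Zfp871 to Zfp414 (32765496 to 33631716), had 11 of 13 genes above 0 and a median of 0.27. The 565 other genes of chromosome 17 had a median of −0.11, so that these Zfp genes and the rest of their chromosome lay on opposite sides of 0. Inside the first of these runs 1 of 2 other genes was above 0, and inside the second 2 of 4.

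Chromosome 7 held 72 of the 302 genes, and its runs went both ways. Over these 72 genes the median log2 ratio was 0.045, and over the 818 other genes of the chromosome it was −0.11. The run from Zfp607b to Zfp850 (27674661 to 28014210) had 7 of 8 genes above 0 and a median of 0.39, with Zfp974 at 2.79 and 4.81 and Zfp60 at 4.58 and 6.93. In the nearby run from Zfp84 to Zfp146 (29768552 to 30169775) 7 of 14 were above 0 and the median was 0.019. The run from Zfp628 to Zfp580 (4915181 to 5053723) had 1 of 6 above 0 and a median of −0.37, and it holds Zfp579. Zfp784 was its exception, at 0.872 and 1.74, and passed the limit of 1 only through the Ascl2 library. Zfp865 was 20.7 and 16.7 and Zfp628 was 4.62 and 3.13.

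On chromosome 6 the run from Zfp398 to Zfp775 (47835633 to 48621548) had 1 of 9 genes above 0 and a median of −0.15, while the 619 other genes of the chromosome had a median of 0.068. The 6 other genes inside that run were all below 0 as well, with a median of −0.24. Zfp956 was 11.0 and 9.13, Zfp775 was 3.75 and 2.99, and Zfp398, the exception, was 4.76 and 5.61. The run from Zfp553 to Zfp646 on chromosome 7 (127233061 to 127885996) had 3 of 10 above 0 and a median of −0.074, which was 0.066 once the trend of the ratio with genomic span was removed. Inside that run 8 of 20 other genes were above 0, with a median of −0.072.

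**Figure D4:**
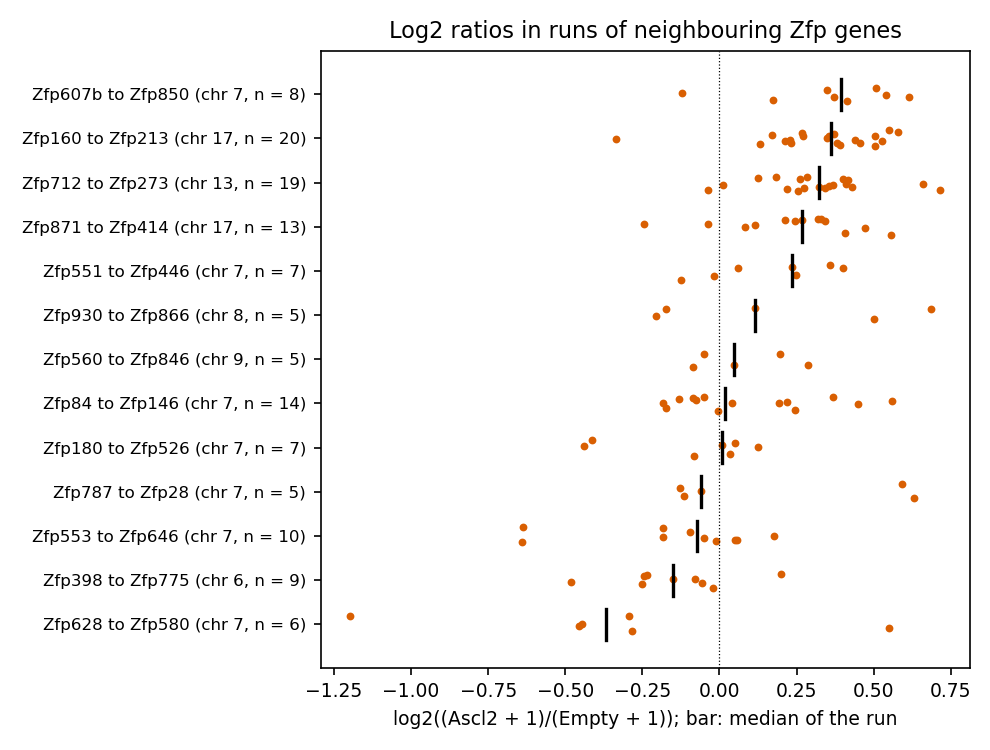
Log2 ratios (x axis) of the members of the 13 runs of neighbouring Zfp genes (rows, ordered by median), with a black bar at each median and points spread vertically for legibility. The run medians go from −0.37 (Zfp628 to Zfp580) to 0.39 (Zfp607b to Zfp850), and 3 runs on chromosomes 13 and 17 lie almost wholly above 0.

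The lean was not confined to these runs. The 102 genes with no Zfp neighbour that reached 1 in the same run had a median log2 ratio of 0.073, and 61 of them (59.8%) were above 0. The 72 genes in runs of 2 to 4 had a median of 0.22, and the 128 in runs of 5 or more had 0.19. These 102 genes were also more abundant, at medians of 9.34 and 9.46, against 4.54 and 4.89 in runs of 5 or more. Without the 52 genes of the runs on chromosomes 13 and 17, the family's median was 0.068 and 59.6% were above 0. By chromosome, the Zfp median was below 0 on chromosomes 2, 6, 8, 14 and 15 and above 0 on the others.

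The base composition of promoters went with these differences among Zfp genes. RefSeq promoter windows (GRCm38.p6, 250 bases before to 50 after the start) were found for 253 of the 302 genes, with a median GC content of 55.3% (the mean over a gene's windows where it has several). To show the contrast, the 250 bases before the start are printed for 1 gene of each of 6 runs. These are the lowest ratio with a listed promoter in the 3 runs of lowest median, and the highest ratio in the 3 runs of highest median among those of at least 10 genes. The choice rests on the ratios, so the sequences illustrate and test nothing. Each reads 5′ to 3′ on the strand of the gene, with CG dinucleotides in capitals.
Zfp579: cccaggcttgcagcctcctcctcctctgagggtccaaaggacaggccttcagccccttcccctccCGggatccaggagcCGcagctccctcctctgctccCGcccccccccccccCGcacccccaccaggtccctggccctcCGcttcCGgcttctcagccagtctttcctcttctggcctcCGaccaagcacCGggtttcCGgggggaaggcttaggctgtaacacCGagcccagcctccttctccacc
Zfp282: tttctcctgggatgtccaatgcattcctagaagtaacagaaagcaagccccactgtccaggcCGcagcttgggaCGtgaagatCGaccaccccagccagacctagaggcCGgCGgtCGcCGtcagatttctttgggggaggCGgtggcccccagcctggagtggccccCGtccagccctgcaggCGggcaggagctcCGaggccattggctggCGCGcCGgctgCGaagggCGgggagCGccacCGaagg
Zfp771: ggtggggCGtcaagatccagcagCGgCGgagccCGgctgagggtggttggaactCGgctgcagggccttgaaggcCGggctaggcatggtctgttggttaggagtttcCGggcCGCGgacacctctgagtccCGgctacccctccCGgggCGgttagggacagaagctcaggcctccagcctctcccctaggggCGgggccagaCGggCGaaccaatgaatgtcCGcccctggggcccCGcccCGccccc

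The 3 from runs of low ratio, Zfp579, Zfp282 and Zfp771, hold 10, 18 and 18 CG dinucleotides at 68.8%, 66.8% and 70.4% GC. The 3 from runs of high ratio follow.
Zfp563: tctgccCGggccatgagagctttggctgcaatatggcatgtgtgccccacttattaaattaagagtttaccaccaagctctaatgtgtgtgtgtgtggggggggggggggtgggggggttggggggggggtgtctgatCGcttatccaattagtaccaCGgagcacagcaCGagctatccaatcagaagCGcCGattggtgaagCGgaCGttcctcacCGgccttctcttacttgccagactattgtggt
Zfp65: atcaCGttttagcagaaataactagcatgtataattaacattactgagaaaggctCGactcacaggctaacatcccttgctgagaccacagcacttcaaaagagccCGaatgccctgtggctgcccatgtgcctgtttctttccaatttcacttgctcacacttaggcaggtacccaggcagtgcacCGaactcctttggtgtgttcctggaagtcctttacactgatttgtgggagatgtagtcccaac
Zfp54: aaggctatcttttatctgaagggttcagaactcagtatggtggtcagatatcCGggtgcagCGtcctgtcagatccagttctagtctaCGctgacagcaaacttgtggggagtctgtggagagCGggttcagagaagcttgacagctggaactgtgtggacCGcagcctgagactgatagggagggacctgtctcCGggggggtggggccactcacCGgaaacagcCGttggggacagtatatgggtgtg

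The windows of Zfp563, Zfp65 and Zfp54 hold 9, 4 and 8 CG dinucleotides at 55.2%, 47.2% and 55.6% GC. Their places on GRCm38.p6 are chr7:4996102-4996351 (minus strand) for Zfp579, chr6:47877305-47877554 (plus strand) for Zfp282, chr7:127244276-127244525 (plus strand) for Zfp771, chr17:33089117-33089366 (plus strand) for Zfp563, chr13:67729174-67729423 (minus strand) for Zfp65 and chr17:21422977-21423226 (plus strand) for Zfp54.

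Over the 253 genes, the log2 ratio and promoter GC content correlated with a Spearman rho of −0.36 (Pearson r −0.35), given as a description since the genes share libraries and, in part, ancestry. The 16 genes under 45% GC had a median log2 ratio of 0.34, with 14 above 0. The 104 genes at 45 to under 55% had 0.24, with 82 above 0, and the 86 at 55 to under 65% had 0.13, with 57 above 0. The 47 at 65% or more had −0.085, with 14 above 0. Thus the Zfp genes with the most GC-rich promoters lay on the other side of 0, at −0.026 to −0.11 under the rescalings, other pseudocounts and the removal of the span trend.

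Median levels rose with GC content, while the median log2 ratios fell. In the Empty library, median values were 2.78 under 45% GC, 4.26 at 45 to under 55%, 6.33 at 55 to under 65% and 9.71 at 65% or more. In the Ascl2 library they were 3.67, 5.201, 6.74 and 8.44, so the classes were closer together there. Of the 11981 other genes only 72.5% had a promoter in the table, which makes a check against other genes void, and nothing is said of whether the relation is particular to Zfp genes.

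**Figure D5:**
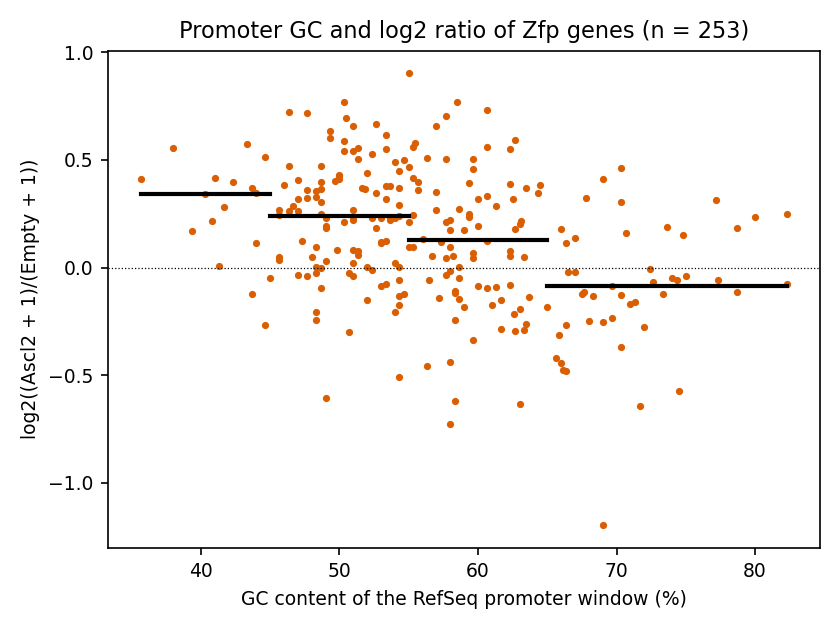
Log2 ratio of the Ascl2 library over the Empty library (y axis) against GC content of the RefSeq promoter window in percent (x axis) for 253 Zfp genes, with bars at the median of each GC class. Medians go from 0.34 under 45% to −0.085 at 65% or more, with wide scatter inside each class.

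Genomic span also went with the ratio, in Zfp genes and in other genes. The 45 Zfp genes spanning under 10 kb had a median log2 ratio of −0.096, with 13 above 0, and 3517 other genes of that span had −0.13. From 10 to under 20 kb the medians were 0.19 for 122 Zfp genes and −0.054 for 2199 others, and from 20 to under 40 kb they were 0.21 for 98 and −0.0020 for 2386. From 40 kb upwards they were 0.19 for 37 and 0.060 for 3310. Short Zfp genes and other short genes thus both had medians below 0, and in every span class the Zfp median lay above that of other genes. Under 10 kb, however, the share above 0 was lower in Zfp genes (28.9% against 36.9%). Span and promoter GC content had a Spearman rho of 0.011 over the 253 Zfp genes with a promoter. A rank correlation can miss a relation that changes direction. With the span trend removed, the median was 0.022 for the genes under 10 kb and −0.042 for those at 65% GC or more. The part of each in the ratios was not tested.

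The hexamer CAGCTG is a form of the E box, the DNA word that basic helix-loop-helix factors bind. It reads the same on both strands, and was found in 53 of the 305 windows of the Zfp genes (17.4%) and in 16.3% of all 32851 windows in the table. By gene, 49 of 253 Zfp genes had it in at least 1 window. The median log2 ratio was 0.20 for Zfp genes with the hexamer (28 of 49 above 0) and 0.16 for those without (139 of 204 above 0). A match is a description of the letters and not of binding, since the chromatin samples of the series were not analysed here.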

How the data were processed

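RNA was measured in 2 libraries, RVKM-Empty and RVKM-Ascl2, grouped by sample title. The authors deposited 1 signal value per gene and library, scaled for depth and, judging by the values, for length. Its unit, the quantifier, the annotation and the strand setting are not stated in these sources. The submitters' processing notes list mm10, Trim Galore, Bowtie2, Picard and MACS2, without versions or roles. No gene was at 0, and every gene had a value of 0.475 or more in a library, which points to a filter on low genes. The depth is unknown. Over the 1842 genes below 1.2 in both files, ratios of the Ascl2 to the Empty value peaked at 0.57 (38 genes, against a median of 9 in intervals of the same width nearby) and at 1.14 (31 against 10). If these are steps of 1 and 2 reads, the Empty library is about 1.14 times as deep.

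Values were used as deposited. Log2 ratios used a pseudocount of 1, and counts and medians of ratios used genes that reached 1 in either library. Levels used all listed genes. With 1 library per group and no counts, no test was made. Members and lists (8 in all) were chosen with earlier results of these data known. The genes named are the 12 highest and 12 lowest ratios, the 12 highest mean values, genes past 2-fold, members of the lists, genes next to the limit of 1 and genes of runs. Runs join Zfp genes with gaps of at most 500 kb. All 325 members matched RefSeq by symbol. The span trend is a running median (501 genes, sorted by genomic length). Alternatives were filters (none, or 5), pseudocounts (0.1 and 5), 2 rescalings, removal of the span trend, other folds and the mean. Steps were tested on simulated data and run with Python 3.11.15, numpy 2.4.6, pandas 2.3.3, scipy 1.17.1 and matplotlib 3.10.9.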

Additional observations from a re-analysis of the deposited data

How the results depend on the processing

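The family's median log2 ratio of 0.13 kept its sign under every alternative run, between 0.068 and 0.20. Counts moved with the settings. With a pseudocount of 0.1, 2 Zfp genes were at least 2-fold higher and 2 at least 2-fold lower, and 590 genes in all were 2-fold apart in place of 276. With a pseudocount of 5 no Zfp gene was 2-fold lower (0) and 123 genes in all were 2-fold apart. At 1.5-fold 19 Zfp genes were higher, 7 lower and 1145 genes in all apart. At 3-fold the Zfp genes lower numbered 0, and 56 genes in all were apart. With a filter of 5, 127 of 186 Zfp genes had a ratio above 0. Without members that have a Zfp neighbour that reached 1 in the same run, an alternative chosen after seeing the data as was leaving out the runs on chromosomes 13 and 17, 61 of 102 did. A pseudocount cannot change the sign of a ratio, so counts above 0 over the same genes and the sign of their median are fixed under it. Of 187 named genes, 2 near 0 changed sign under the rescaling to a median of 0. That rescaling multiplies all values of the Ascl2 library by the same factor. The restriction to proteins with C2H2 motifs was not run, because no protein sequences were used. No paired analysis was possible because each group has 1 library. Unknown depth limits the lowest genes most, where single reads move a value.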
